A study of Homo sapiens with 9 samples.

Results

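The enzymes described are 10 that make, phosphorylate or methylate the pyridine nucleotides and their precursors: NNMT, NAMPT, NAPRT, NMNAT1, QPRT, KYNU, KYAT1, KYAT3, NADK and NNT. They were chosen with earlier results of these data known, by symbol through the NCBI gene identifier of each row. All 10 were found among the 28395 genes of the deposited count table. The counts come from 9 RNA-seq libraries of 3 kidney cell lines, with 3 libraries per line. HK2 is a line of proximal tubule cells from normal kidney, 786-O is a line from a primary clear cell renal cell carcinoma (ccRCC), and 786-M1A is a metastatic derivative of 786-O. All 3 lines were untreated and grown stably in Plasmax, a medium modelled on the metabolites of human plasma. Each line stands for its group alone, and 786-M1A descends from 786-O, so what belongs to a line and what belongs to primary or metastatic ccRCC cannot be told apart.

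NAD is an electron carrier and also the substrate of PARP enzymes and sirtuins, which split off nicotinamide. Cells rebuild it from nicotinamide through NAMPT, from nicotinic acid through NAPRT, from nicotinamide riboside through the NMRK kinases, or de novo from tryptophan through kynurenine and QPRT, and the NMNAT enzymes form the dinucleotide. NNMT removes nicotinamide by methylation, the kynurenine aminotransferases (KYAT1 and KYAT3) divert kynurenine to kynurenic acid, and NADK and NNT lead to NADPH. The proximal tubule is a main site of de novo NAD synthesis in the kidney.

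The libraries held between 30212291 and 45362428 counts on genes, so that 3 counts, the floor used here, were between 0.0647 and 0.0961 CPM (counts scaled to the library total, here with TMM factors between 0.964 and 1.03). Of 10 proximal tubule markers, 7 had a mean under 1 CPM, and LRP2 and SLC22A6 had no count in any library of the 3 lines, HK2 included. GGT1, another tubule marker, was between 79.2 and 109 CPM in all libraries. ANPEP, a brush border peptidase, had a mean of 1.74 CPM in HK2, against 112 in 786-O and 19.9 in 786-M1A, while MIOX, an inositol oxygenase of the tubule, was at 9.17 CPM in HK2, at 0.443 in 786-O and at 0.251 in 786-M1A. The summed level of these markers was between 116 and 123 CPM in HK2, between 192 and 197 CPM in 786-O and between 106 and 118 CPM in 786-M1A. CA9, a marker of ccRCC, was at or under the floor in all libraries, while VEGFA, a target of hypoxia signalling, had a mean of 19.3 CPM in HK2, of 162 CPM in 786-O and of 331 CPM in 786-M1A. The ccRCC markers PAX8, CAV1 and ANGPTL4 differed less between HK2 and 786-O. Their means in HK2, 786-O and 786-M1A were 167, 164 and 183 CPM for PAX8, 394, 377 and 532 for CAV1, and 2.57, 3.11 and 3.26 for ANGPTL4. NDUFA4L2, also on that list, was not matched in the count table. Of 10 markers of other cell types, 9 had a mean under 1 CPM. The exception was COL1A1, the gene of a fibrillar collagen chain, at 53.5 CPM in HK2, at 291 CPM in 786-O and at 16.5 CPM in 786-M1A, and its part in the results below was not tested.

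Of the 10 enzymes, 8 had a RefSeq start window in the reference table. The 250 bases upstream of the start are given for QPRT and KYNU, which had the largest differences between 786-M1A and HK2, and, for contrast, the first 203 bases of the window of NMNAT1, whose largest log2 difference between lines was 0.27. Capitals mark CpG dinucleotides, the sites of DNA methylation. The windows are on the plus strand of GRCh38.p14, at chr16:29678758-29679007 for QPRT, chr2:142877414-142877663 for KYNU and chr1:9943225-9943427 for NMNAT1.
QPRT: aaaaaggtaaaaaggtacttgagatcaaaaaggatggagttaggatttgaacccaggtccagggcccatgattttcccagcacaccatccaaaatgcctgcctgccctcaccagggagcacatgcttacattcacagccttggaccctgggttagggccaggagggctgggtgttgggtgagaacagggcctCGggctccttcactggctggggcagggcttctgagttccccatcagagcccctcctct
KYNU: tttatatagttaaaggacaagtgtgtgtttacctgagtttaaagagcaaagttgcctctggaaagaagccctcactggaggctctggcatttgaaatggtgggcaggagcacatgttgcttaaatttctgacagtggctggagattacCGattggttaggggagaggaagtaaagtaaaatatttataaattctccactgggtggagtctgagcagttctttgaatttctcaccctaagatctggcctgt
NMNAT1: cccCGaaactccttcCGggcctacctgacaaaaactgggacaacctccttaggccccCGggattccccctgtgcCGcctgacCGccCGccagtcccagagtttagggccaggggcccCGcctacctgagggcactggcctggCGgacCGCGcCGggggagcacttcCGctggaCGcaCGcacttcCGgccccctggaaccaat
The windows of QPRT and KYNU held 1 CpG each, and the stretch of NMNAT1 held 15.

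**Figure D1:**
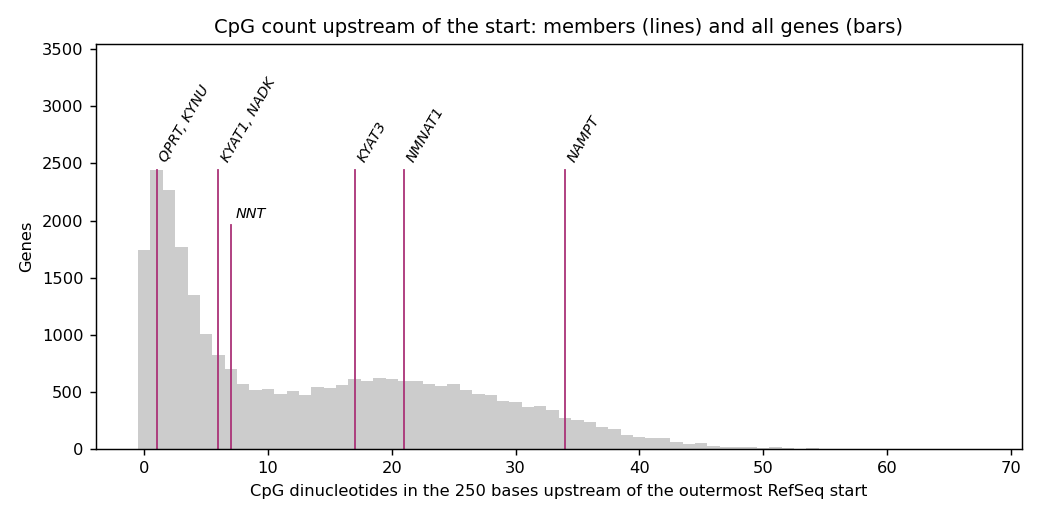
Number of CpG dinucleotides in the 250 bases upstream of the outermost RefSeq start (x axis) against the number of genes with that value (y axis, grey bars, 27305 genes). Lines mark the 8 enzymes with a window: QPRT and KYNU are at 1, KYAT1 and NADK at 6, NNT at 7, KYAT3 at 17, NMNAT1 at 21 and NAMPT at 34.

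Over the whole 250 bases, and taking the outermost start of each gene, the median of 27305 genes was 10 CpG, with quartiles of 3 and 23. At most 1 CpG was found in 15.3% of genes. NAMPT had 34 CpG in its window, NMNAT1 21 and KYAT3 17. Where RefSeq gives several starts, the count depended on the start: 1 to 32 CpG over the 3 windows of KYAT1, 5 to 29 over the 3 of NADK and 7 to 24 over the 2 of NNT, against 1 to 2 over the 2 windows of QPRT. Of the 8 enzymes, QPRT and KYNU were therefore those with no window above 2 CpG. GENCODE extends QPRT, NAMPT, KYAT3 and NADK farther upstream than the window of their outermost RefSeq start. The windows of these genes therefore lie within their GENCODE spans, and no window was read at the GENCODE starts. The letters TATAAA, searched on both strands, were present in the window of KYNU, on the coding strand 66 bases before the start and also on the opposite strand, and in that of none of the other 7 enzymes, while 11.2% of genes have them. GCGTG was present for NAMPT, NMNAT1, NADK and NNT (31.9% of genes). ACGTG was absent from all 8 windows (18.6% of genes), and with it CACGTG, which contains it (6.46% of genes). Methylation and factor binding were not measured in these libraries, and the letters describe the windows only.

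Differences between lines were tested by the quasi-likelihood method of edgeR, with all 9 libraries fitted together. P-values were adjusted after Benjamini and Hochberg over the 12695 genes whose mean reached 50 counts. A gene is called where its adjusted p was under 0.05. The comparisons of the cancer lines with HK2 share the HK2 libraries, and that of 786-M1A with 786-O shares the libraries of both. All 10 enzymes passed the filter. KYNU passed only through HK2, since it had between 13 and 21 counts in each library of the cancer lines, and so it had to differ from HK2. Between 786-O and HK2, 7 of 10 enzymes were called, where 84.2% of all genes were. Of these, 5 were lower in 786-O (42.5% of all genes) and 2 higher (41.7%). Between 786-M1A and HK2, 10 of 10 were called, where 85.0% of all genes were, with 5 lower (42.9%) and 5 higher (42.0%) in 786-M1A. Between 786-M1A and 786-O, 8 of 10 were called, where 56.2% of all genes were, with 3 lower (27.1%) and 5 higher (29.0%) in 786-M1A. With so many genes called, the sizes separate the enzymes more than the calls do. At least 2-fold lower were 4 of 10 in 786-O against HK2 (13.1% of all genes), 3 of 10 in 786-M1A against HK2 (14.9%) and 1 of 10 in 786-M1A against 786-O (4.52%), and none was 2-fold higher in these comparisons (9.18%, 10.5% and 2.03% of all genes). KYNU, which had to differ from HK2, is among the 4 and among the 3. The enzymes were also chosen with earlier results known, so these shares do not test them as a set. The median log2 difference of the 10 was -0.12, -0.20 and 0.08 in these comparisons, and that of all genes was -0.01, -0.01 and 0.01. In bulk RNA, a change in all cells and a change in the share of cells that carry the transcript cannot be told apart.

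**Figure D2:**
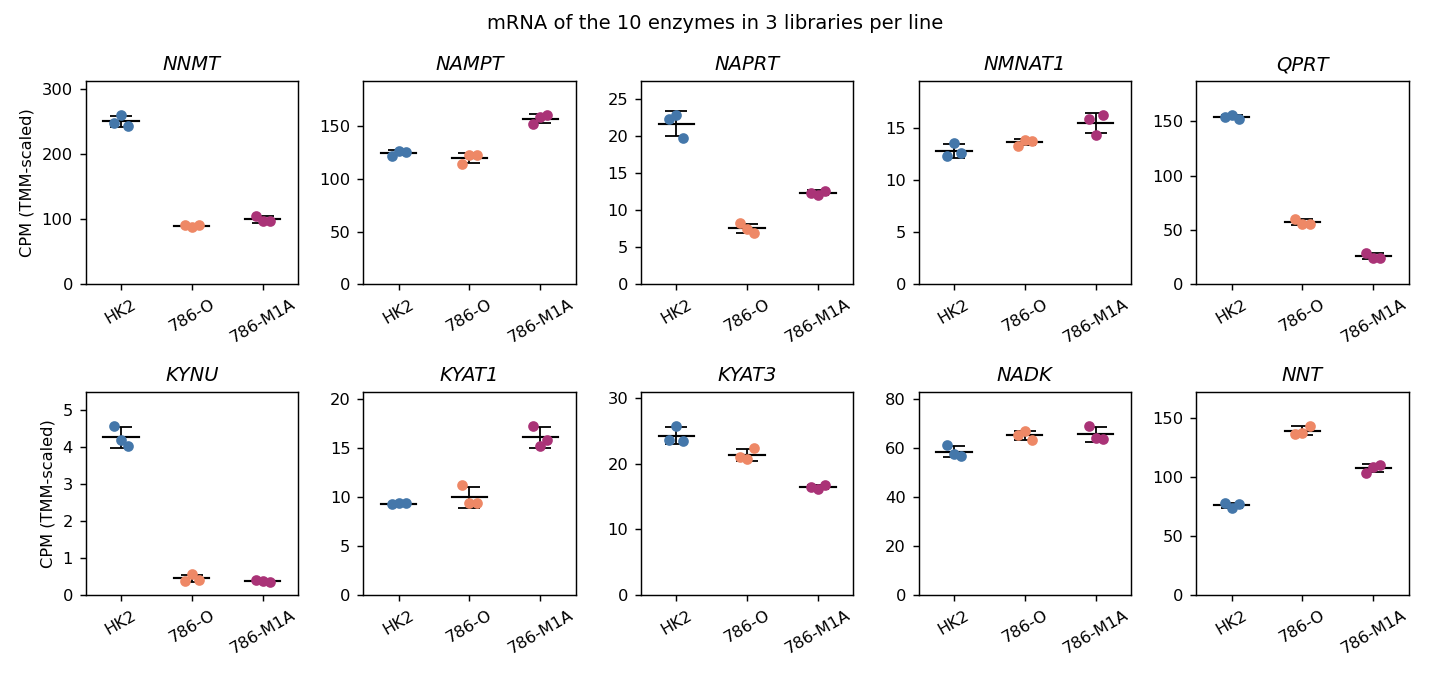
TMM-scaled CPM (y axis, linear and starting at 0) of the 10 enzymes in each library (points) of HK2, 786-O and 786-M1A (x axis), with the mean and SD of 3 libraries as black lines. NNMT, NAPRT, QPRT, KYNU and KYAT3 are lower in every library of both cancer lines than in HK2. NNT, NADK and, narrowly in 786-O, KYAT1 are higher.

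The enzyme of the de novo route that converts quinolinate, QPRT (chromosome 16, 29663279 to 29698699, plus strand), stepped down from HK2 to 786-O and again to 786-M1A. It was at 154, 156 and 152 CPM in HK2, at 60.1, 55.6 and 55.9 CPM in 786-O and at 29.0, 24.6 and 24.6 CPM in 786-M1A. The 3 lines did not overlap, and the steps were far larger than the spread within a line. QPRT was 2.69-fold lower in 786-O than in HK2 (log2 difference -1.43, SE 0.050, edgeR adjusted p = 1.62e-16), 5.91-fold lower in 786-M1A than in HK2 (-2.56, SE 0.054, adjusted p = 2.45e-20) and 2.20-fold lower in 786-M1A than in 786-O (-1.14, SE 0.055, adjusted p = 3.72e-13). This last difference was the only one of at least 2-fold among the enzymes between the related cancer lines. QPRT shares 38 exon bases on its strand with SPN, a leukocyte surface gene with 39 to 48 counts per library in HK2 and 163 to 204 in the cancer lines.

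KYNU (chromosome 2, 142877657 to 143055833, plus strand), kynureninase, acts earlier in the same route and was nearly lost in both cancer lines. Its counts were 143, 169 and 187 in HK2, against 17, 21 and 17 in 786-O and 15, 14 and 13 in 786-M1A, or 4.27 ± 0.283, 0.446 ± 0.0954 and 0.376 ± 0.0378 CPM (mean ± SD, n = 3). The libraries of the cancer lines overlapped each other and lay far below those of HK2. KYNU passed the filter only through HK2, so that a call against HK2 was bound to follow and its p-values are no separate support. The log2 difference was -3.26 in 786-O (SE 0.16, edgeR adjusted p = 3.63e-14) and -3.49 in 786-M1A (SE 0.17, adjusted p = 2.98e-14) against HK2. Between the cancer lines it was -0.23 (SE 0.27, adjusted p = 0.510), not called at these counts. From the summed counts, KYNU was 11.3-fold lower in 786-M1A than in HK2, with an exact 95% interval of 8.23 to 15.9 that covers counting error only. The genes whose profile over the 9 libraries was closest to that of KYNU, by the Euclidean distance of centred log2 CPM, were ENO3 (0.36), TNFRSF21 (0.43), ZFPM2 (0.50), PICK1 (0.55) and DOCK4 (0.55).

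The enzymes upstream of KYNU and beside it moved in different directions. TDO2, which opens the tryptophan ring, had 0 to 4 counts per HK2 library, 65 to 84 in 786-O and 37 to 43 in 786-M1A, and its mean was under the filter. From summed counts it was 30.3-fold higher in 786-O than in HK2 (exact 95% interval 14.5 to 76.2, counting error only) and 18.0-fold higher in 786-M1A (8.49 to 45.8). IDO1, with the same reaction, had 0 counts in HK2 and at most 5 in the other libraries, and IDO2 had at most 1. AFMID, the formamidase that releases kynurenine, was at 16.4, 10.4 and 8.42 CPM in HK2, 786-O and 786-M1A (means), with log2 differences to HK2 of -0.65 and -0.96 (edgeR adjusted p = 2.22e-08 and 7.62e-11).

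KMO, the monooxygenase that hydroxylates kynurenine to the substrate of KYNU, was higher in both cancer lines than in HK2. It had 19, 8 and 15 counts in HK2, against 258, 300 and 413 in 786-O and 330, 411 and 383 in 786-M1A. The cancer libraries overlapped each other and none came near HK2, with log2 differences to HK2 of 4.44 in 786-O (SE 0.32, edgeR adjusted p = 2.42e-07) and 4.80 in 786-M1A (SE 0.31, adjusted p = 8.37e-08), and 0.36 between the cancer lines (adjusted p = 0.0996). KMO passed the filter only through the cancer lines and so had to differ from HK2. KYNU passed only through HK2, so that calls in opposite directions were bound to follow for these enzymes. The directions themselves are read from the counts, which do not depend on the filter. HAAO, the next enzyme towards quinolinate, had at most 1 count in any library, and ACMSD, which takes its product away from quinolinate, had 5 to 27 counts. In none of the 3 lines were all enzymes from tryptophan to quinolinate above the floor of 3 counts.

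Kynurenine is transaminated to kynurenic acid by KYAT1, KYAT3, AADAT and GOT2, and the first 2 moved in opposite directions in 786-M1A. KYAT1 (chromosome 9, 128832942 to 128882494, minus strand) was at 9.23, 9.33 and 9.32 CPM in HK2, at 11.2, 9.34 and 9.36 CPM in 786-O and at 17.2, 15.2 and 15.8 CPM in 786-M1A. HK2 and 786-O were close, although without overlap, and 786-M1A stood above both. KYAT1 shares 2055 exon bases on its strand with a protein-coding gene that was not matched in the count table. The log2 difference was 0.79 against HK2 (SE 0.076, edgeR adjusted p = 4.13e-09) and 0.68 against 786-O (SE 0.075, adjusted p = 1.16e-07), and 0.10 between 786-O and HK2 (SE 0.080, adjusted p = 0.233). KYAT3 (chromosome 1, 88935773 to 88992953, minus strand) was at 23.6, 25.8 and 23.4 CPM in HK2, at 21.0, 20.7 and 22.4 CPM in 786-O and at 16.5, 16.1 and 16.8 CPM in 786-M1A. It stepped down from line to line without overlap, with a log2 difference of -0.18 in 786-O and -0.56 in 786-M1A against HK2 (edgeR adjusted p = 0.00443 and 9.66e-09) and -0.38 between the cancer lines (adjusted p = 1.06e-05). KYAT3 shares 359 exon bases on its strand with RBMXL1, which also fell (-0.42, -0.55 and -0.14 in the same order), and how reads on these bases were assigned was not tested.

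Per kilobase of transcript, the ratio of KYAT1 to KYAT3 was 0.353 ± 0.0176 in HK2, against 0.430 ± 0.0548 in 786-O and 0.899 ± 0.0566 in 786-M1A (mean ± SD, n = 3). By this measure the pair was closest to equal in 786-M1A. The bases that KYAT1 and KYAT3 share with other genes were not taken out of the lengths, and their effect on the ratio was not tested. GOT2, the mitochondrial aspartate aminotransferase, was the most abundant of the 4 in all lines, at 96.2, 76.7 and 82.1 CPM per kb. KYAT1 made up 3.96% of the summed CPM per kb of the 4 in HK2, against 5.19% in 786-O and 7.96% in 786-M1A. AADAT, with log2 differences to HK2 of -0.36 and -0.61 (edgeR adjusted p = 4.46e-05 and 5.95e-08), fell in the same order as KYAT3.

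Among the salvage enzymes, NAMPT, which is rate-limiting for the use of nicotinamide, was the least changed from HK2 to 786-O. NAMPT (chromosome 7, 106248298 to 106285966, minus strand) was at 122, 126 and 125 CPM in HK2, at 114, 123 and 122 CPM in 786-O and at 152, 159 and 161 CPM in 786-M1A. HK2 and 786-O overlapped, with a log2 difference of -0.06 (SE 0.040, edgeR adjusted p = 0.179), which passed the threshold with upper-quartile scaling (-0.10, adjusted p = 0.0244). All libraries of 786-M1A were above all others, by 0.33 on the log2 scale against HK2 (SE 0.040, adjusted p = 9.41e-08) and 0.39 against 786-O (SE 0.040, adjusted p = 3.39e-08).

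NAPRT (chromosome 8, 143574785 to 143578649, minus strand), which starts salvage from nicotinic acid, fell in both cancer lines and more in 786-O. It was at 22.4, 22.9 and 19.8 CPM in HK2, at 8.23, 7.47 and 6.95 CPM in 786-O and at 12.4, 12.0 and 12.6 CPM in 786-M1A. The lines did not overlap and 786-M1A lay between the others. Against HK2 the log2 difference was -1.51 in 786-O (SE 0.074, edgeR adjusted p = 3.75e-14) and -0.81 in 786-M1A (SE 0.070, adjusted p = 6.35e-10), and 786-M1A exceeded 786-O by 0.71 (SE 0.079, adjusted p = 1.57e-07). NADSYN1, which amidates the product of the NAPRT and QPRT routes to NAD, rose where both of these fell, with log2 differences to HK2 of 1.15 in 786-O and 1.30 in 786-M1A (edgeR adjusted p = 2.08e-14 and 1.97e-15).

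The kinase of nicotinamide riboside, NMRK1, rose in both cancer lines. It was at 2.08, 2.01 and 1.75 CPM in HK2, at 17.2, 16.7 and 17.0 CPM in 786-O and at 23.6, 20.6 and 21.8 CPM in 786-M1A. The lines did not overlap, and the log2 difference to HK2 was 3.14 in 786-O (SE 0.090, edgeR adjusted p = 3.26e-18) and 3.51 in 786-M1A (SE 0.088, adjusted p = 2.75e-19). NMRK2, the second such kinase, had 11, 16 and 14 counts in HK2 and 0 in all 6 libraries of the cancer lines, at least 4.41-fold lower in 786-O and at least 4.20-fold lower in 786-M1A when the highest floor of 3 counts in a library of that line is taken as its level.

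The enzymes of 4 entries to NAD synthesis (NAMPT, NAPRT, QPRT and NMRK1) were set side by side per kilobase, a grouping made after their values were seen. The order of their means was different in each line, although some neighbours in that order overlapped. In HK2, QPRT led with 70.0 CPM per kb, followed by NAMPT with 28.6, NAPRT with 12.9 and NMRK1 with 1.11. In 786-O, NAMPT (27.5) and QPRT (26.0) had ranges that overlapped, ahead of NMRK1 (9.67) and NAPRT (4.49). In 786-M1A, NAMPT (36.1) led, NMRK1 (12.5) and QPRT (11.8) overlapped, and NAPRT (7.33) was lowest. QPRT took 62.2% ± 0.315 of the summed level in HK2, against 38.4% ± 1.42 in 786-O and 17.5% ± 1.44 in 786-M1A, and NAMPT took 25.4% ± 0.584, 40.6% ± 1.96 and 53.2% ± 2.22 (mean ± SD, n = 3). The sum of the 4 was 113 CPM per kb in HK2, against 67.6 in 786-O and 67.8 in 786-M1A. These levels assume the length of 1 reference transcript per gene, and mRNA levels are not enzyme amounts. HAAO, which acts before QPRT, had at most 1 count in any library, and the use of the 4 routes was not measured.

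**Figure D3:**
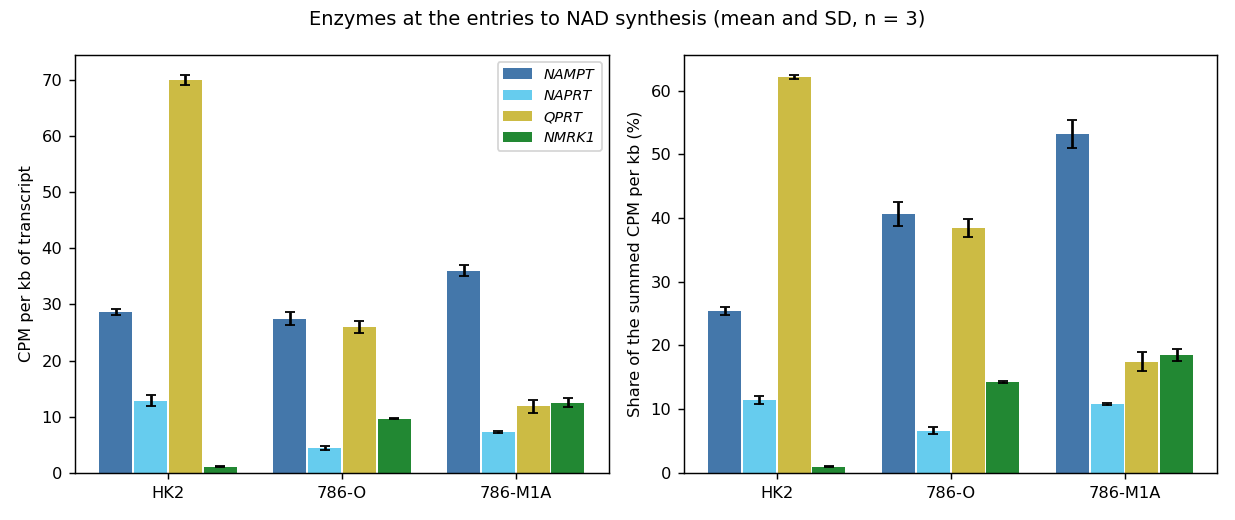
CPM per kb of transcript (left, y axis) and share of the summed CPM per kb in percent (right, y axis) of NAMPT, NAPRT, QPRT and NMRK1 in the 3 lines (x axis); bars are means and error bars SDs of 3 libraries, on linear axes from 0. QPRT falls from 62.2% in HK2 to 17.5% in 786-M1A, while NAMPT rises from 25.4% to 53.2%.

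Of the enzymes that form the dinucleotide, NMNAT1, the nuclear one, differed by at most 0.27 on the log2 scale between lines, while its paralogs were almost lost in the cancer lines. NMNAT1 (chromosome 1, 9943428 to 9985501, plus strand) was at 12.3, 13.5 and 12.5 CPM in HK2, at 13.3, 13.8 and 13.7 CPM in 786-O and at 15.8, 14.3 and 16.2 CPM in 786-M1A. HK2 and 786-O overlapped (log2 difference 0.09, SE 0.066, edgeR adjusted p = 0.227), and 786-M1A was above HK2 by 0.27 (SE 0.066, adjusted p = 7.12e-04). Its excess over 786-O, 0.18 (SE 0.065, adjusted p = 0.0198), was no longer called without 786-O replicate 1 (adjusted p = 0.0673), without 786-M1A replicate 1 (0.0524) or without 786-M1A replicate 3 (0.0967).

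NMNAT2, the cytosolic and Golgi-bound paralog, had 125, 134 and 192 counts in HK2, against 4, 7 and 6 in 786-O and 0, 2 and 2 in 786-M1A. Its summed counts give a level 28.0-fold lower in 786-O than in HK2 (exact 95% interval 17.3 to 48.6, counting error only) and 107-fold lower in 786-M1A (41.5 to 395). NMNAT3, the mitochondrial paralog, had 104, 141 and 141 counts in HK2, against 21, 15 and 14 in 786-O and 5, 3 and 8 in 786-M1A, and was 22.9-fold lower in 786-M1A than in HK2 (13.9 to 40.5). Both passed the filter only through HK2, so that they had to differ from it. Between the cancer lines both were called lower in 786-M1A (log2 differences -1.84 and -1.47, SE 0.71 and 0.37, edgeR adjusted p = 0.0331 and 0.00220). NMNAT2 was under the floor of 3 counts in every library of 786-M1A, so the size of its difference between the cancer lines is uncertain. NMNAT1 made up 59.5% ± 1.42 of the summed CPM per kb of the 3 in HK2, against 94.2% ± 0.833 in 786-O and 98.2% ± 0.683 in 786-M1A (mean ± SD, n = 3).

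NNMT (chromosome 11, 114257787 to 114313536, plus strand), which methylates nicotinamide and so withdraws it from salvage, was lower in both cancer lines. It was at 247, 260 and 243 CPM in HK2, at 90.4, 87.4 and 90.6 CPM in 786-O and at 105, 96.5 and 96.7 CPM in 786-M1A. The cancer lines lay close together, without overlap, well below HK2. The log2 difference to HK2 was -1.48 in 786-O (SE 0.042, edgeR adjusted p = 2.68e-18) and -1.33 in 786-M1A (SE 0.042, adjusted p = 1.45e-17), and 0.15 between the cancer lines (SE 0.042, adjusted p = 0.00435). Per kilobase, NNMT was the highest of the 10 enzymes in all 3 lines, at 124 CPM per kb in HK2, against 44.5 in 786-O and 49.4 in 786-M1A. Of the 3 genes that supply and recycle its methyl donor, MAT2A and MAT2B rose in both cancer lines (log2 differences to HK2 between 0.31 and 0.59), and AHCY, the hydrolase of its product S-adenosylhomocysteine, was not called in any comparison. AOX1, which oxidises methylated nicotinamide, rose from 1.77 CPM in HK2 to 5.59 in 786-O and 8.91 in 786-M1A as means (log2 differences 1.65 and 2.32, edgeR adjusted p = 5.43e-12 and 4.11e-15).

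Of the enzymes that lead to NADPH, NADK, the cytosolic NAD kinase, barely moved and NNT, the mitochondrial transhydrogenase, rose. NADK (chromosome 1, 1751232 to 1780457, minus strand) was at 61.1, 57.7 and 56.9 CPM in HK2, at 65.4, 66.9 and 63.1 CPM in 786-O and at 69.1, 64.1 and 63.5 CPM in 786-M1A. Every cancer library was above every HK2 library and the cancer lines overlapped, with log2 differences to HK2 of 0.16 and 0.17 (edgeR adjusted p = 0.00348 and 0.00217) and 0.01 between the cancer lines (adjusted p = 0.873). Its mitochondrial counterpart NADK2 rose more, by 0.65 and 0.70 on the log2 scale against HK2 (edgeR adjusted p = 1.99e-11 and 5.55e-12).

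NNT (chromosome 5, 43602692 to 43707405, plus strand) was at 78.0, 73.9 and 76.9 CPM in HK2, at 137, 138 and 144 CPM in 786-O and at 104, 109 and 110 CPM in 786-M1A. The lines did not overlap, and 786-M1A lay between the others. The log2 difference to HK2 was 0.87 in 786-O (SE 0.040, edgeR adjusted p = 1.38e-14) and 0.50 in 786-M1A (SE 0.040, adjusted p = 2.11e-10), and -0.37 between the cancer lines (SE 0.039, adjusted p = 7.00e-08). NNT overlaps its antisense gene NNT-AS1, which had 10 to 26 counts per library. Of 6 other NADPH producers, ME3, a mitochondrial malic enzyme that passed the filter only through HK2, had 457, 521 and 624 counts in HK2, against 8, 10 and 8 in 786-O and 34, 34 and 25 in 786-M1A, and IDH1 rose by 0.96 and 0.89 on the log2 scale against HK2.

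**Figure D4:**
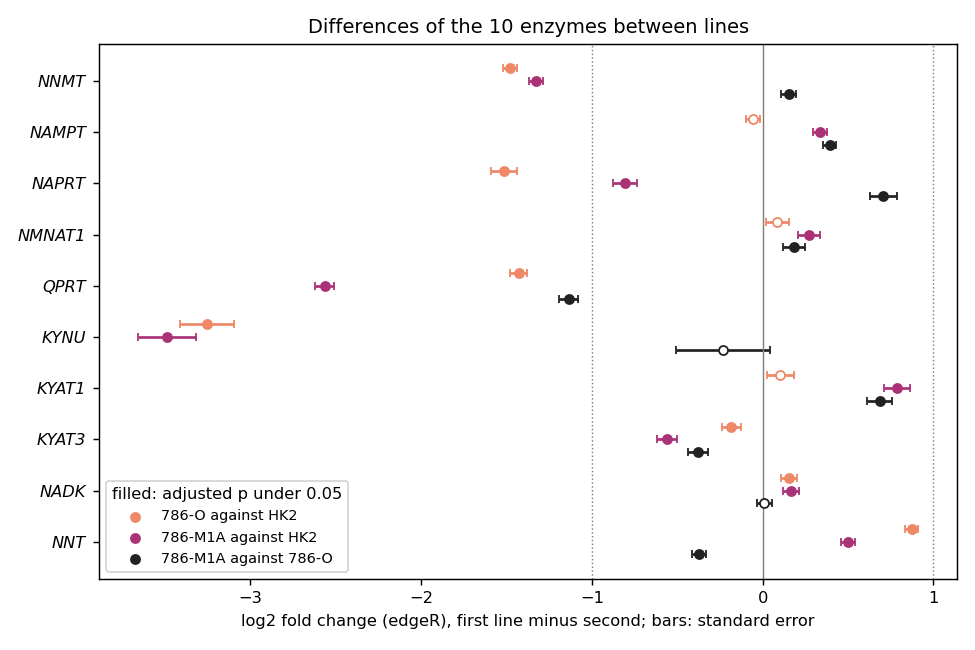
Log2 fold change of the 10 enzymes (x axis; first line minus second, edgeR) with its standard error as bars, for the 3 comparisons by colour; filled points have an adjusted p under 0.05 and dotted lines mark 2-fold. QPRT, KYNU and NNMT lie beyond -1 in both comparisons with HK2, and KYAT1, NAPRT and QPRT differ most between the cancer lines.

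Exact two-sided permutation tests on single enzymes gave p = 0.1 wherever the 3 libraries of a line did not overlap with the 3 of another, which is the smallest value this design allows. This held for 8 of 10 enzymes between 786-O and HK2 (85.5% of all genes), for 10 of 10 between 786-M1A and HK2 (85.0%) and for 8 of 10 between the cancer lines (61.7%).

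The wider pathway was followed in 60 other genes in 9 lists, of which 45 passed the filter. In 786-O against HK2, 24 were higher and 16 lower (40 of 45 called, 84.2% of all genes), in 786-M1A against HK2 27 were higher and 15 lower (85.0%), and in 786-M1A against 786-O 17 were higher and 12 lower (56.2%). The carrier of tryptophan and kynurenine, SLC7A5, and its heavy chain SLC3A2 rose in both cancer lines. SLC7A5 was at 159, 156 and 172 CPM in HK2, at 838, 778 and 770 CPM in 786-O and at 1002, 998 and 938 CPM in 786-M1A, so that no line overlapped another. Its log2 difference to HK2 was 2.29 and 2.59, and that of SLC3A2 was 1.11 and 1.35 (edgeR adjusted p of at most 2.53e-16 for both genes). The other transporters of that list, SLC7A8 and SLC16A10, were under the filter.

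**Figure D5:**
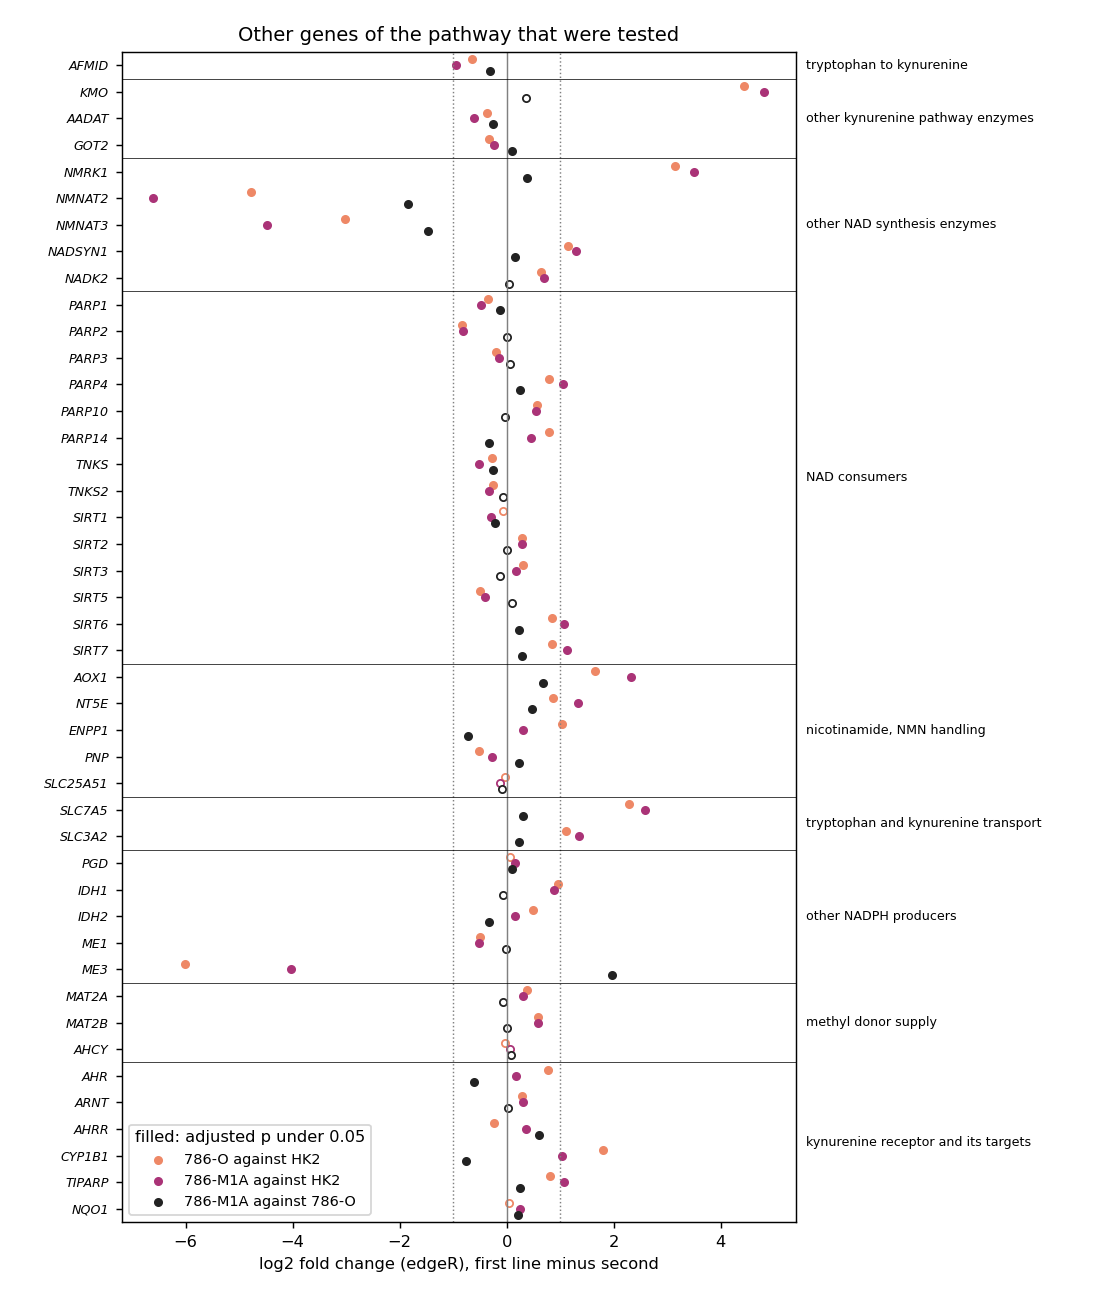
Log2 fold change (x axis; first line minus second, edgeR) of 44 of the 45 tested genes of the wider pathway, grouped by list at the right, for the 3 comparisons by colour; filled points have an adjusted p under 0.05 and dotted lines mark 2-fold. KMO, NMRK1 and SLC7A5 stand furthest to the right and NMNAT2, ME3 and NMNAT3 furthest to the left.

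Among 14 tested consumers of NAD, 7 rose and 6 fell in 786-O against HK2, 7 rose and 7 fell in 786-M1A against HK2, and 3 rose and 4 fell in 786-M1A against 786-O. Of all genes tested, 41.7% rose and 42.5% fell in the first comparison, 42.0% and 42.9% in the second and 29.0% and 27.1% in the third. The nuclear sirtuins SIRT6 and SIRT7 had the largest differences to HK2, 0.85 for each in 786-O and 1.08 and 1.13 in 786-M1A on the log2 scale. PARP14, a mono-ADP-ribosyltransferase, was lower in 786-M1A than in 786-O (-0.33, edgeR adjusted p = 1.83e-05). CD38, the NAD glycohydrolase of the cell surface, had at most 2 counts in any library. NT5E, the ectonucleotidase that removes the phosphate of nicotinamide mononucleotide, rose by 0.86 and 1.33 on the log2 scale against HK2 (edgeR adjusted p = 6.32e-12 and 6.51e-15), and ENPP1, which cuts NAD outside the cell, by 1.03 and 0.30.

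Kynurenine and kynurenic acid are ligands of the aryl hydrocarbon receptor, and 6 of 7 genes of that list were tested. The receptor gene AHR was at 42.6 ± 1.33 CPM in HK2, at 72.9 ± 5.68 CPM in 786-O and at 48.0 ± 0.838 CPM in 786-M1A (mean ± SD, n = 3). Its target CYP1B1 followed the same order, at 111 ± 2.75, 384 ± 9.44 and 227 ± 4.13 CPM, with log2 differences of 1.79 and 1.04 to HK2 and -0.75 between the cancer lines (edgeR adjusted p = 1.09e-20, 1.05e-16 and 1.64e-13). Its target TIPARP rose from HK2 to 786-O (0.81) and to 786-M1A (1.07), and AHRR, the repressor of the receptor, was lower in 786-O (-0.24, edgeR adjusted p = 0.0347) and higher in 786-M1A (0.36, adjusted p = 0.00176) than in HK2.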

How the data were processed

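RNA of 3 libraries per line was measured by TruSeq Stranded mRNA sequencing on a NextSeq. The authors counted the reads on genes with featureCounts on GRCh38 and deposited whole-number counts without normalization. The annotation version and use of strand are not given in the sources used here. The study's methods describe replicate dishes plated the day before extraction, more of them than the 3 libraries per line. Whether each library is a separate dish is not labelled. If so, p-values measure the spread between such dishes.

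Symbols (27745 of 28395 identifiers) and start windows came from RefSeq on GRCh38.p14, positions, overlaps and transcript lengths (MANE Select) from GENCODE release 44. Counts were scaled by TMM in edgeR 4.0.16 (R 4.3.3), genes whose mean reached 50 counts entered the robust quasi-likelihood model, and SEs were derived from its F statistic. Exact permutation tests used log2 CPM with a prior count of 2. The printed window of NMNAT1 was cut where its GENCODE transcripts begin. The length of KYNU in that annotation is 15151 bases, and its level per kb is therefore not given.

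The enzymes and the gene lists were chosen with earlier results of these data known. All 10 enzymes are named, tested or not, and all genes of the lists of tryptophan to kynurenine and of the other kynurenine enzymes. From each other list, the 2 called genes with the largest absolute log2 fold change per comparison are named, and for the enzyme with the largest change the 5 closest profiles. Genes that overlap an enzyme and were matched by symbol in the count table, and markers of cell types, are named beside the results they touch. Unmatched genes also overlap exons of NAMPT, NAPRT, NMNAT1, KYNU and KYAT1. On the same strand these overlaps are 2055 bases for KYAT1 and 436 bases for NMNAT1. Other genes (NMRK2, NADSYN1, NADK2, CD38, AHR, NQO1, CYP1A1, AHCY, SLC7A8 and SLC16A10) were named after their values were seen. The single result of 1 gene within the rule is not reported here. The fits were tested on simulated data. Alternatives were DESeq2 1.42.0, limma 3.58.1, RLE and upper-quartile scaling, other filters, a fit of the lines compared, a replicate block and leaving out each library. Python 3.11.15 was used for the other steps.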

Additional observations from a re-analysis of the deposited data

Results flagged for a closer look

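The metastatic line and the line it derives from differed in their change from HK2 in 8 of 10 enzymes, by the test of 786-M1A against 786-O itself (edgeR adjusted p under 0.05, a call that 56.2% of all genes met). On the log2 scale, 786-M1A exceeded 786-O by 0.71 for NAPRT, 0.68 for KYAT1, 0.39 for NAMPT, 0.18 for NMNAT1 and 0.15 for NNMT. It was below 786-O for QPRT (-1.14), KYAT3 (-0.38) and NNT (-0.37). NAPRT, NNMT and NNT were closer to HK2 in 786-M1A than in 786-O, while QPRT, KYAT1, KYAT3, NAMPT and NMNAT1 were farther from it. Within 786-M1A, the counts of replicate 1 differed from those of replicates 2 and 3 by a chi-square per degree of freedom of 8.49 and 7.84, against 3.06 between replicates 2 and 3, and within HK2 those of replicate 2 differed from the others by 6.19 and 8.14, against 3.19.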

How the results depend on the processing

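Across 17 alternatives, the counts of called enzymes, pathway genes and all genes stayed within 1.5 times their main values. For the enzymes, only a fall could have broken this limit, since no more than 10 could be called. Of 510 log2 differences of single enzymes, 502 kept their direction and their side of the threshold. NADK between the cancer lines, not called under any setting and at 0.01 with the main settings, changed sign with upper-quartile scaling (-0.0047), with limma (-0.011) and when 786-O replicate 3 or 786-M1A replicate 1 was left out (between -0.030 and 0.033 when each library was left out). The other exceptions were NAMPT between 786-O and HK2, called with upper-quartile scaling (-0.10, adjusted p = 0.0244), and NMNAT1 between the cancer lines, not called without 786-O replicate 1, 786-M1A replicate 1 or 786-M1A replicate 3 (log2 difference between 0.15 and 0.24 when each library was left out). Leaving out each library, 7 to 8 enzymes were called between the cancer lines. Scaling moved the median of all genes to at most -0.07 on the log2 scale (upper quartile). The libraries share replicate numbers but are not known to be paired: deviations of same-numbered libraries correlated between -0.17 and 0.21, while a fit that takes this number as a block called 7, 10 and 8 enzymes, the counts of the fit without it, then 40, 43 and 31 pathway genes against 40, 42 and 29, and 10680, 10804 and 7179 of all genes. Between the cancer lines, KMO (0.37, edgeR adjusted p = 0.0434) and AHCY (0.08, adjusted p = 0.0471) were called with the block and not without it (adjusted p = 0.0996 and 0.0656). As a hint from the data and not the design, 6 of 6 libraries of the cancer lines deviated most like the library of their own number, against 0 of 6 for 786-O with HK2 and 1 of 6 for 786-M1A with HK2. Depth limits KYNU, NMNAT2 and NMNAT3 in the cancer lines, and TDO2, IDO1, HAAO and ACMSD, most of which were under the filter.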
